A study of Mus musculus with 4 samples.

Results

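The miR-183 cluster is a group of 3 miRNA hairpins on mouse chromosome 6, and it was measured here through 4 of its mature strands, mmu-miR-183, mmu-miR-183*, mmu-miR-96 and mmu-miR-182, out of 577 miRNA names on the array. The strands were selected by name, with their difference between siLin28a and siGFP in these arrays already known from an earlier analysis, so that difference is given below as a description and was not tested for the cluster. Total RNA came from A3-1, a cultured line of mouse embryonic stem cells grown in serum-containing medium with LIF, a cytokine that holds them in the undifferentiated state. One group received an siRNA against Lin28a (siLin28a), and the other an siRNA against GFP as its control (siGFP), each with 2 replicates taken after 48 h. Both groups share the line, the medium and the procedure, every replicate was hybridised to 1 single-colour (Cy3) Agilent array, and the labels do not say whether separate cultures stand behind the replicates.

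In animal cells the hairpins of the cluster are released from a primary transcript by the enzyme Drosha and cut by Dicer into mature strands, which guide repression of mRNAs that pair with their seed. The cluster is best known from sensory organs such as the retina and the hair cells of the inner ear, where it is abundant, and changes in the seed of miR-96 cause hearing loss in mice and people. Its members also repress transcripts of FOXO transcription factors in several cell types. LIN28A, the protein targeted by the siRNA, binds let-7 precursors in embryonic stem cells and blocks their maturation.

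The mature sequences are shown because the 3 strands from the 5p arms look alike at the 5' end while their seeds are not the same. They are from RefSeq (GRCm38.p6, minus strand of chromosome 6), with the seed, bases 2 to 8, in capitals.
miR-96: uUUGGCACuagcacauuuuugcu
miR-183: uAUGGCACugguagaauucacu
miR-182: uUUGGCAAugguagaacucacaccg
miR-183*: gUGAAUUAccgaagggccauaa
The seed of miR-96 shares 6 of its 7 bases with that of miR-183, from which it differs at position 2 of the strand, and 6 with that of miR-182, from which it differs at position 8. The seeds of miR-183 and miR-182 differ at both positions and share 5 bases. Beyond the seed, miR-183 and miR-182 hold a common run of 8 bases, UGGUAGAA. No seed base of miR-183*, the opposite strand of the miR-183 hairpin, equals that of miR-183 at its position. The only other mouse strand of the RefSeq table that shares bases 2 to 7 with a member is miR-1271-5p, which shares them with miR-96 and miR-182 and has no probe name on this array.

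The hairpins are shown to place each strand, with the mature strands in capitals.
Mir183, chr6:30169668-30169737: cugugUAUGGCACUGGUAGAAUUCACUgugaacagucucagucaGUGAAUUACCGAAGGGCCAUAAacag
Mir96, chr6:30169446-30169551: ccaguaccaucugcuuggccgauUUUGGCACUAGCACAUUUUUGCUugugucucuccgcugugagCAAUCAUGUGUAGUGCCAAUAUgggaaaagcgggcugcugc
Mir182, chr6:30165918-30165992: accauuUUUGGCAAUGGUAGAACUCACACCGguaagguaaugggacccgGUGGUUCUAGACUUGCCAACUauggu
They span 3820 bases, with 116 bases between Mir183 and Mir96 and 3453 bases between Mir96 and Mir182. In RefSeq the span overlaps 1 other gene, the long noncoding RNA Mirc35hg, and lies between the protein-coding genes Nrf1 and Ube2h. Of the 6 mature strands, the array has probe names for 4. The motif GGAG, which LIN28 proteins are known to bind in the loop of let-7 precursors, was searched on the transcribed strand of each hairpin. It is in 0 of the 3 hairpins of the cluster, in 9 of 12 let-7 and miR-98 hairpins, and in 447 of all 1005 hairpins of the table (44.5%). That count says only that these letters are not in the 3 hairpins.

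The file headers place the probe targets on build mm9. For miR-183 they start at 30119711 on chromosome 6, for miR-183* at 30119672, for miR-96 at 30119506 and for miR-182 at 30115962. The spacing of these starts equals that of the mature strands in RefSeq, which is how miR-183, miR-96 and miR-182 of the array were matched to 5p strands and miR-183* to the 3p strand. Targets cover 21 or 22 bases of the 23 of miR-96 and 18 or 19 of the 22 of miR-183, but 15 or 16 of the 25 of miR-182. Those of miR-183* are 12 to 15 bases long. Brightness of different probes also depends on their length and sequence, so levels were not ranked between members.

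The 4 arrays shared 1 slide and 1 scan. The siLin28a arrays were brighter, with a 75th percentile of 248 and 265 intensity units over 425 probes well above background on every array, against 226 and 220 for siGFP. Each array was divided by that percentile before log2 was taken, and with 4 arrays in all the precision of each value is limited. The label was checked on 12 strands of the miR-290 cluster, the main miRNA cluster of mouse embryonic stem cells, and all 12 were detected. Of 9 let-7 guide strands, which LIN28A holds back, 5 passed the filter on dim probes. The summed total signal of all 9, not scaled between arrays, was 346 and 339 on the siLin28a arrays against 50.01 and 45.5 on the siGFP arrays.

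All 4 members had a lower mean on the siLin28a arrays, with differences of -0.39 to -0.49 on the log2 scale, or changes of -23.9% to -28.6% in signal. For each of them the higher siLin28a array lay below the lower siGFP array. In the fit over all 231 miRNAs with limma, 0 of the 4 members passed the threshold of 0.05 after adjustment, and 2, miR-96 and miR-183*, were below it before adjustment. Over all 231 miRNAs, 0.866% passed after adjustment, all of them higher with siLin28a. Before adjustment 11.3% passed as lower and 13.4% as higher. Groups that did not overlap were found for 30.7% of all miRNAs in the lower direction and for 30.7% in the higher one.

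mmu-miR-96 is the member whose seed is tied to hearing. Its scaled signal (log2) was 1.24 and 1.13 on the siLin28a arrays, against 1.56 and 1.78 on the siGFP arrays. The siLin28a arrays were both lower than both siGFP arrays, with a gap of 0.32 between the nearest arrays of the groups. The means were 1.19 ± 0.08 with siLin28a and 1.67 ± 0.15 with siGFP (SD, n = 2 each), a difference of -0.49 (SE 0.10).

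mmu-miR-183 comes from the hairpin closest to that of miR-96. Its scaled signal (log2) was -1.32 and -1.27 on the siLin28a arrays, against -1.11 and -0.70 on the siGFP arrays. Here the nearest arrays were only 0.17 apart, and the siGFP arrays differed from each other by more than that. The means were -1.30 ± 0.03 with siLin28a and -0.90 ± 0.29 with siGFP (SD, n = 2 each), a difference of -0.39 (SE 0.18), the smallest of the 4.

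mmu-miR-183*, the opposite strand of the same hairpin, is the strand that is usually the less abundant of the pair. Its scaled signal (log2) was -3.02 and -2.91 on the siLin28a arrays, against -2.61 and -2.36 on the siGFP arrays. The groups did not overlap, and all 4 values lay above the floor of -3.40 at which dim signals were set. The means were -2.97 ± 0.08 with siLin28a and -2.49 ± 0.18 with siGFP (SD, n = 2 each), a difference of -0.48 (SE 0.12).

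mmu-miR-182, known to repress FOXO1 and FOXO3 transcripts, is cut from the hairpin farthest from the other two. Its scaled signal (log2) was -0.76 and -0.64 on the siLin28a arrays, against -0.44 and -0.07 on the siGFP arrays. Both siLin28a arrays were lower than both siGFP arrays, with 0.21 between the nearest. The means were -0.70 ± 0.08 with siLin28a and -0.25 ± 0.26 with siGFP (SD, n = 2 each), a difference of -0.45 (SE 0.16).

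**Figure D1:**
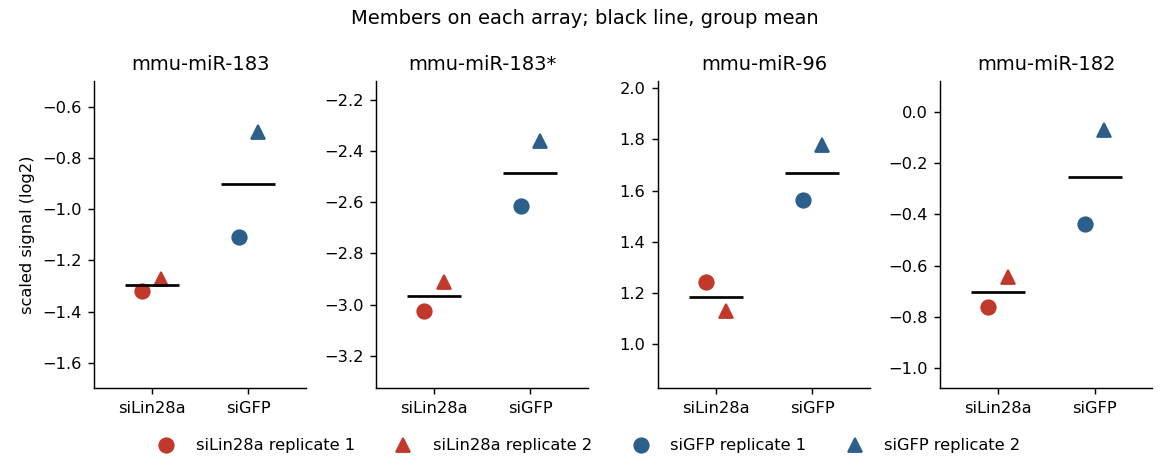
Scaled signal (log2) of each member on every array, siLin28a left and siGFP right, with circles for replicate 1, triangles for replicate 2 and black lines for group means; the vertical axes have the same length but different positions. In each panel both siLin28a points lie below both siGFP points, and siGFP replicate 2 is the highest point.

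The 2 siLin28a arrays lay close together for every member, with an SD of 0.03 to 0.08, whereas the SD between the siGFP arrays was 0.15 to 0.29. In all 4 members siGFP replicate 2 was the highest array. The mean over the members was -0.97 and -0.92 on the siLin28a arrays, against -0.65 and -0.34 on the siGFP arrays, a difference of -0.45 (log2). Without siGFP replicate 2 that difference was -0.28. The single remaining siGFP array lay above both siLin28a arrays for each member, as it already did with all arrays, so this adds no check. In the same setting miR-183 differed by -0.17 and miR-182 by -0.25, each more than 1.5 times smaller than with all arrays. Without siGFP replicate 1 the mean was -0.54.

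The members moved nearly in parallel from array to array. Within an array the difference between 2 members does not depend on the scaling between arrays, since the same factor divides both, as long as neither lies at the floor. Over the 6 pairs, this difference changed between siLin28a and siGFP by at most 0.09 (log2), and in each pair the groups overlapped. The members were chosen with their similar differences between the groups known, so small changes within pairs follow in part from that choice. Pairs of other miRNAs are not given for comparison. miR-183 minus miR-96 was -2.56 and -2.40 with siLin28a against -2.67 and -2.47 with siGFP, a change of 0.09. For miR-183* minus miR-96 the change was 0.0047, and for miR-96 minus miR-182 it was -0.04. These values are differences between log2 signals of different probes, so their size has no meaning as a ratio of strands, and only their change between groups can be read.

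Both strands of the Mir183 hairpin shifted by similar amounts. miR-183 minus miR-183* was 1.70 and 1.64 on the siLin28a arrays, against 1.51 and 1.66 on the siGFP arrays, a change of 0.09 that lay inside the overlap of the groups. Among the 14 hairpins whose opposite strand is named with a star on this array and that had both strands kept, the opposite strand's difference between siLin28a and siGFP minus that of the strand without the star had a median of -0.08 and ranged from -0.50 to 0.33. For Mir183, itself among these 14, it was -0.09. The 14 also include a hairpin whose opposite strand lay at the floor on every array, which fixed that strand's difference at 0. Hairpins whose strands are named 5p and 3p were not part of this comparison.

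**Figure D2:**
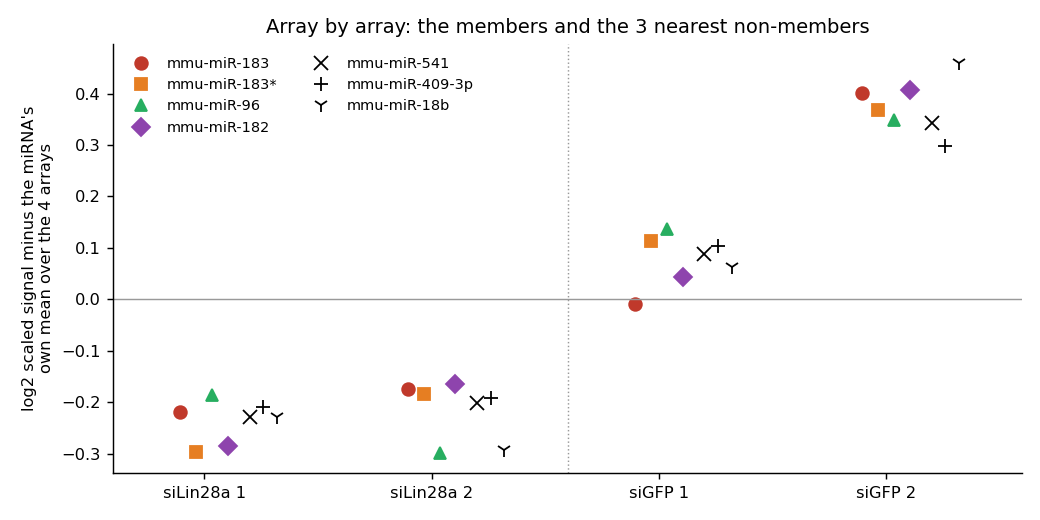
Each miRNA's log2 scaled signal minus its own mean over the 4 arrays, in the order siLin28a 1 and 2, siGFP 1 and 2; coloured symbols are the 4 members and black symbols the 3 non-members with the most similar pattern. The members lie below 0 on both siLin28a arrays and between 0.35 and 0.41 on siGFP replicate 2, and on siGFP replicate 1 miR-183 lies at -0.0083.

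The kept probes of miR-96, miR-182 and miR-183 gave similar differences within each strand. Of 10 probes for the members, 7 were kept, namely both for miR-183, miR-96 and miR-182 and 1 of 4 for miR-183*. The 2 probes of miR-96 differed between siLin28a and siGFP by -0.48 and -0.49 (log2), those of miR-182 by -0.47 and -0.43, and those of miR-183 by -0.40 and -0.39. The 2 probes of such a strand have targets that start at the same base and cover nearly the same bases. They were also read on the same arrays, so they are not independent readings. The spread over the spots of a kept probe within an array was 3.86% to 11.2% of its mean (CV, median 7.43%), with 5 or 10 spots printed per probe.

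Before scaling, the longer-target probe of miR-96 had mean spot signals of 675 and 674 intensity units with siLin28a, against 779 and 866 with siGFP. The brighter probe of miR-182 had 267 and 314 with siLin28a, against 301 and 381 with siGFP, where siGFP replicate 1 lay below siLin28a replicate 2. The same held for the brighter probe of miR-183, with 118 and 128 with siLin28a against 122 and 160 with siGFP. The dimmer probe of miR-182 had 80.0 and 91.6 with siLin28a against 92.4 and 114.7 with siGFP, without overlap. The unscaled groups therefore overlapped for both probes of miR-183 and for 1 of 2 probes of miR-182, while those of the kept probes of miR-96 and miR-183* did not.

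The kept probe of miR-183* had 30.5 and 35.2 intensity units with siLin28a, against 36.9 and 42.8 with siGFP, and all 5 of its spots were well above background on every array. It is the probe with the longest target for this strand. The next shorter one had 13.3 and 15.7 units with siLin28a, against 12.3 and 19.9 with siGFP, and was not well above background on both arrays of either group. The 2 shortest had signals between -4.90 and 2.76 units on all arrays. For miR-183* the result thus rests on a single probe.

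**Figure D3:**
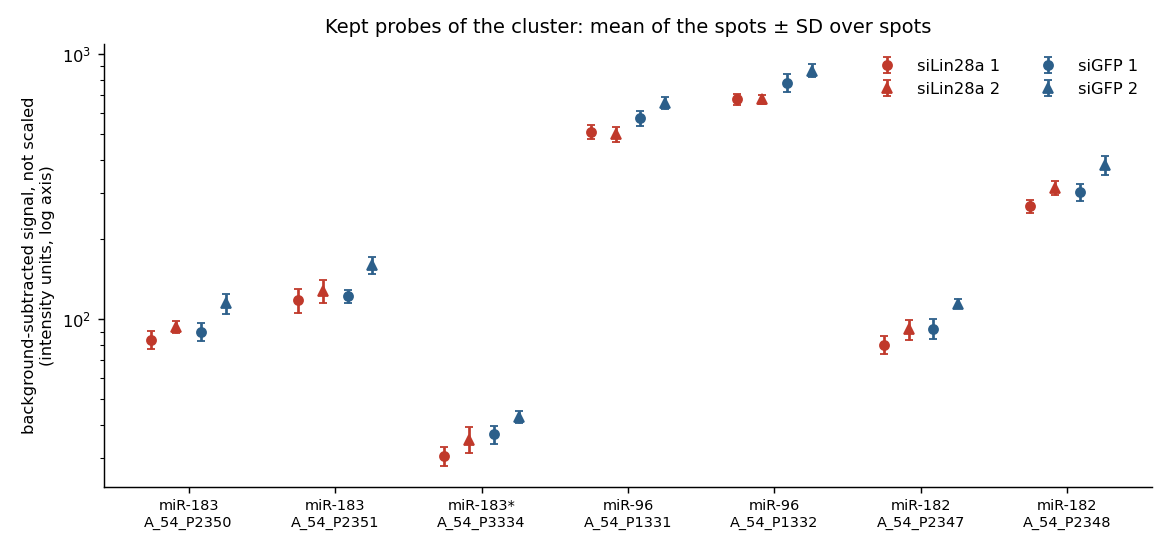
Background-subtracted signal of the 7 kept probes (intensity units before scaling, log axis), as mean ± SD over the spots of an array, siLin28a in red left of siGFP in blue. siGFP replicate 2 is the highest array for every probe, and the spot SDs of siLin28a replicate 2 and siGFP replicate 1 overlap for miR-183, miR-183* and miR-182. For the shorter-target probe of miR-96, the spot SDs of siLin28a replicate 1 and siGFP replicate 1 overlap as well.

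Feature Extraction, the scanner software, also gives 1 total signal per miRNA with an error, which is not scaled between arrays and is on another scale than the spot means. It called all 4 members detected on all 4 arrays. The total signal of miR-96 averaged 847 ± 3.42 with siLin28a and 1022 ± 122 with siGFP (SD, n = 2 each). For miR-182 it averaged 270 ± 33.0 with siLin28a and 317 ± 62.5 with siGFP (SD, n = 2 each). miR-183 averaged 152 ± 12.1 with siLin28a and 173.5 ± 37.7 with siGFP, and miR-183* averaged 15.6 ± 2.40 with siLin28a and 19.3 ± 4.49 with siGFP (SD, n = 2 each). For miR-182, miR-183 and miR-183* the SD of the siGFP arrays exceeded the difference, and these unscaled totals overlapped between the groups. Once these totals were scaled in the same way as the probes, all 4 members were lower without overlap of the groups, by -0.45 for miR-183 up to -0.57 for miR-183* (log2). The totals come from the same arrays as the probe values, so they are not a separate reading. The share of all miRNAs lower without overlap is not given for the totals, and was 30.7% for the probe values.

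Against all 231 miRNAs, whose median difference was 0, the median of the 4 members was -0.46. There were 6 miRNAs with a lower difference than miR-96, 7 with a lower one than miR-183*, 10 than miR-182 and 17 than miR-183. Since the members were known from this contrast, nothing is read from these ranks.

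**Figure D4:**
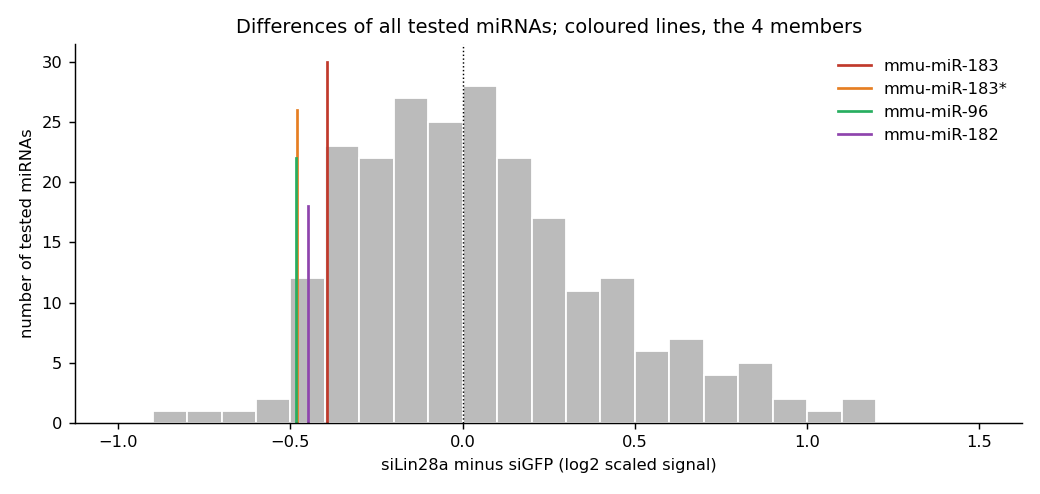
Histogram of siLin28a minus siGFP (log2 scaled signal) for 231 tested miRNAs, with coloured lines at the 4 members; the line heights carry no value. The members lie between -0.49 and -0.39, in the lower tail of a distribution with its median at 0.

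The non-members with the most similar pattern were found by the root mean square distance, over the 4 arrays, to the mean pattern of the members. miR-541 was the nearest at 0.02 (log2), followed by miR-409-3p at 0.05 and miR-18b at 0.06, against a median of 0.28 over all non-members. Their targets lie on chromosomes 12, 12 and X. The members themselves had distances of 0.03 to 0.07 to their own mean. miR-541 differed between siLin28a and siGFP by -0.43 (SE 0.13), miR-409-3p by -0.40 (SE 0.10) and miR-18b by -0.52 (SE 0.16). Strands of other loci thus lay as near to the mean pattern as members did.

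Other miRNAs of chromosome 6 are described here without a comparison to the cluster, which was chosen with its difference known. Outside the cluster 8 were tested, of which 1 was lower and 4 were higher with siLin28a without overlap of the groups, against 30.7% in each direction over all miRNAs, with a median difference of 0.17 and a range of -0.35 to 0.50 (log2). The nearest of these was miR-335-5p, whose target starts 571664 bases above that of miR-183*, with a difference of -0.07 and overlapping groups. The other strand of that hairpin, miR-335-3p, had a difference of -0.35, lower without overlap, and was the 1 lower miRNA among the 8. Of the 4 higher ones, miR-141 and miR-200c also belong to the epithelial list below and are counted there too.

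Markers of other cell types that an embryonic stem cell culture could hold were examined beside these values. The epithelial list (miR-200a, miR-200b, miR-200c, miR-141, miR-429 and miR-205) had all 6 members tested, 5 of them higher with siLin28a without overlap (30.7% over all miRNAs), with a median difference of 0.34 (log2). Its summed total signal was 814 and 750 with siLin28a against 570 and 501 with siGFP. The fibroblast or feeder list had 3 of 7 tested, with a median of -0.00073 and summed signals of 420 and 386 with siLin28a against 379 and 315 with siGFP. The neural list had 3 of 6 tested, with a median of 0.12 and sums of 244 and 330 with siLin28a against 209 and 255 with siGFP. Of the blood list 2 of 6 were tested, with a median of 0.0083 and sums of 162 and 115 with siLin28a against 127 and 101 with siGFP. No member of the muscle, endoderm or liver, or primed pluripotent lists was tested. Their summed signals were at most 1.65, 35.1 and 42.9 on any array. In bulk RNA, fewer cells of a type and less of a miRNA per cell cannot be told apart, and the part of these markers in the cluster's difference was not tested.

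**Figure D5:**
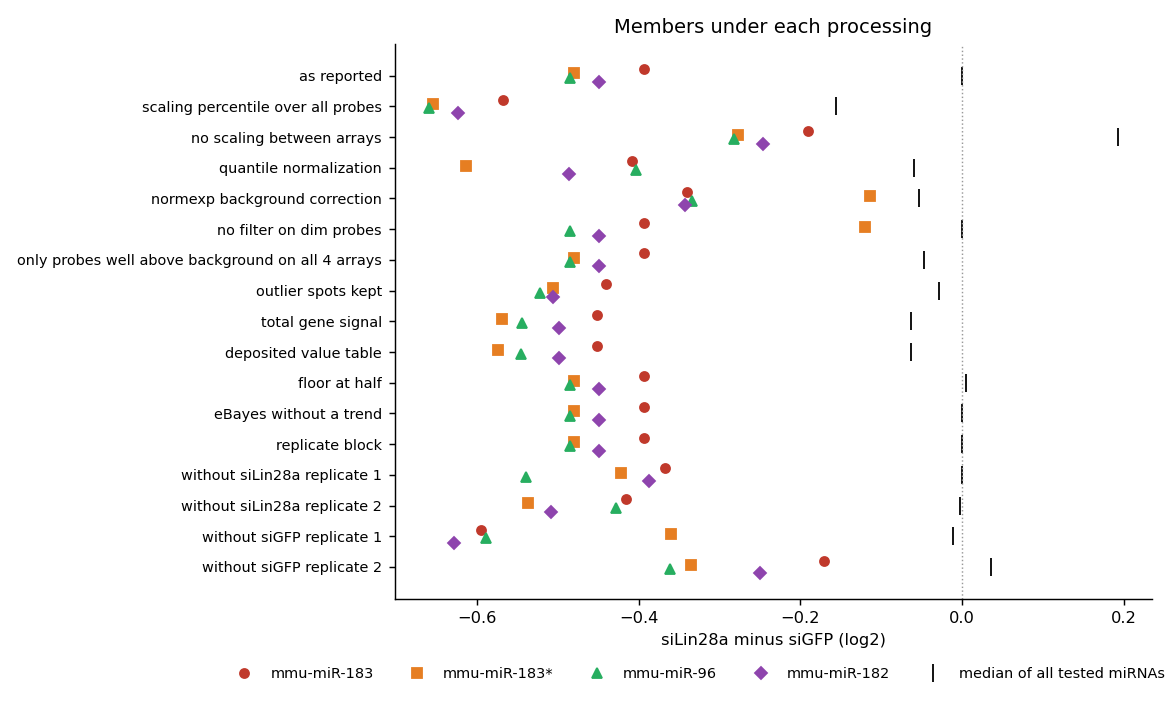
Difference of each member between siLin28a and siGFP (log2) as reported and under 16 other ways of processing, with the median of all tested miRNAs as a black tick. All member symbols lie below 0, from -0.66 to -0.11, and the ticks range from -0.16 to 0.19.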

How the data were processed

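MicroRNA arrays were hybridised with 100 ng of total RNA per sample, per the labels. The deposited scanner files hold intensity values, made with Agilent Feature Extraction 9.5.1.1 per the file headers (9.5.3.1 per the submitters' processing notes), with a fitted background subtracted within each array and no scaling between arrays. The authors' deposited table holds the total signal per miRNA.

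Outlier spots were left out (3.21% to 4.32% of 11540), and spots were averaged over 1712 probes. Each array was divided by its 75th percentile over 425 probes well above background (at least 50% of spots) on all arrays, floored at 0.0948 and log2-transformed. Probes entered where they were well above background on the 2 arrays of either group (477 probes, 231 miRNAs) and were averaged per miRNA. Groups, taken from the sample titles, were compared in R 4.3.3 with limma 3.58.1 (eBayes with a trend, two-sided, Benjamini-Hochberg), with 2 residual and 1.64 prior degrees of freedom. The fit was tested on simulated data. The p-values reflect the spread among these samples alone, and that spread may be technical. Members and lists were chosen with earlier results of these data known. Named non-members are the 3 nearest in pattern, and miR-335-5p and miR-335-3p were named after their values were seen.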

Additional observations from a re-analysis of the deposited data

How the results depend on the processing

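All 16 alternatives kept each member below 0, and in 14 of them all 4 members were lower without overlap of the groups. The exceptions were no scaling between arrays, where miR-183 and miR-182 overlapped, and normexp, where miR-183* did. Several alternatives could hardly change this count. eBayes without a trend and the replicate block left the array values as they were. The halved floor and the filter on all arrays gave the same cluster mean. Groups already apart can come to overlap on leaving out 1 array only through scaling, floor or filter. As reported, 30.7% of all miRNAs were lower without overlap. The cluster mean of -0.45 (log2) was -0.63 with the scaling percentile over all probes, -0.25 with no scaling and -0.28 with normexp (offset 50). These scalings also moved the median of all miRNAs, to -0.16 over all probes and 0.19 with no scaling. Relative to that median the cluster mean was -0.47 and -0.44, and relative to its own median -0.23 with normexp. With 1 array left out the cluster mean itself ranged from -0.54 to -0.28, and relative to the median of each run from -0.53 to -0.32. The value for miR-183* was -0.12 with no filter, where its 3 dim probes sit at the floor, and -0.11 with normexp. For miR-96 it was -0.33 with normexp, and the part of the offset in these values was not tested. Over the alternatives no member passed limma's adjusted threshold except miR-96 with no filter (limma adjusted p = 0.0139, with 577 miRNAs tested). Its difference there was still -0.49 (log2), and its SE was larger, 0.15 against 0.10 as reported. Since the members were chosen with this contrast known, nothing is read from that pass.

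Over all miRNAs, limma called 2 higher and 0 lower. The count of higher calls was 0 with the percentile over all probes, 0 with normexp, 0 with only probes above background on all arrays, 8 with the total gene signal, 8 with the deposited table, 10 with the floor halved and 40 with no filter, where 8 were lower. With 1 array left out it was 0 to 13, and a lone array is assumed to vary like the other group. The cause was not tested. With the replicate number as a block, 2 were higher and 0 lower, and the cluster mean was -0.45. Deviations from the group means of the replicate 1 arrays correlated at 0.71 across miRNAs. The labels do not say what the numbers share, and per the file headers replicate 1 lay at positions 1 and 2 of the slide and replicate 2 at 3 and 4. Between arrays of the same number the cluster mean differed by -0.32 for replicate 1 and -0.59 for replicate 2.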
